A study of Mus musculus with 30 samples.

Results

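The small nucleolar RNAs (snoRNAs) described here are the snoRNA genes of the deposited table whose symbol is Snord or Snora followed by a number, and whose level reached 1 in the length-scaled unit TPM (transcripts per 1e+06) in at least 3 of the 30 libraries. The table lists 1507 snoRNA genes, of which 144 carry such a symbol, and 76 of these 144 passed the minimum. The 76 comprise 54 box C/D RNAs (Snord) and 22 box H/ACA RNAs (Snora), and hold 75 distinct symbols, since Snord3b4 names 2 overlapping entries, of 216 bases and 1 base less. Of the other 68 named genes, 24 were listed at 0 in every library and 44 had some signal below the minimum. At the edge of the rule, Snord104, Snord42a, Snord57, Snord78, Snord87 and Snora61 reached 1 TPM in exactly 3 libraries, and Snord21, Snord4a, Snora3, Snora33, Snora68 and Snora9 in exactly 2. The mean TPM over all libraries was 0.369 to 0.541 for the first 6 and 0.202 to 0.414 for the last 6. No member passed through a single treatment group.

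The libraries came from lumbar dorsal root ganglia, the clusters of sensory neuron cell bodies, glia and vessels beside the spinal cord, taken from levels L3 to L5 on both sides of male wild-type C57BL/6J mice. At day 2 the groups were saline, CVAD, cyclophosphamide and dexamethasone, and at day 8 they were saline, CVAD, cyclophosphamide, vincristine, doxorubicin and dexamethasone, with 3 libraries in each of the 10 groups. CVAD is a chemotherapy combination that joins cyclophosphamide, vincristine, doxorubicin (Adriamycin) and dexamethasone. Doses, schedule and ages are not given in the sources used here, and nothing says whether the libraries of a group came from separate mice, so p-values measure the spread between libraries, which may be technical. All libraries were made from 60 to 80 ng of total RNA that was depleted of ribosomal RNA, fragmented by heat and copied with random primers, with the strand kept. In whole ganglia, fewer cells of a type and less RNA per cell cannot be told apart.

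SnoRNAs are short RNAs of the nucleolus that mostly guide chemical marks onto ribosomal RNA. Box C/D RNAs carry the motifs called C and D near their ends, bind fibrillarin, Nop56, Nop58 and Snu13, and direct ribose methylation. Box H/ACA RNAs fold into hairpins that end in an ACA triplet, bind dyskerin (Dkc1), Nop10, Nhp2 and Gar1, and direct the conversion of uridine to pseudouridine. A few members, among them U3, U8 and U17, serve in the cutting of the ribosomal RNA precursor. In mammals most snoRNAs lie inside introns of other genes and are trimmed out of the spliced intron, so that their supply is tied to transcription of the host gene.

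The sequences of the members that the results turn on are given first. Sequences came from the GENCODE M21 transcripts on GRCm38, matched by Ensembl gene identifier, and 67 of the 76 members had one. All 67 had the length that the table gives. None of the 67 started at the position that the GRCm38 annotation gives, so the coordinates printed here, copied from the table, are not on GRCm38. The submitters' processing notes name mm10, which is GRCm38, and GRCm39. The U17 pair, Snora73b at chr4:132079633-132079837 on the minus strand and Snora73a at chr4:132080086-132080290 on the minus strand, is shown because Snora73b was the most abundant member and because the pair is nearly identical. Capitals mark the ACA triplet within the last 8 bases of an H/ACA RNA.
Snora73b: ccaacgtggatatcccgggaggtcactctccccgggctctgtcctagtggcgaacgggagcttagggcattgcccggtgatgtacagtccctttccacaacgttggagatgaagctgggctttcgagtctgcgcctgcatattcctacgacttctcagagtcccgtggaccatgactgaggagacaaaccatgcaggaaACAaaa
Snora73a: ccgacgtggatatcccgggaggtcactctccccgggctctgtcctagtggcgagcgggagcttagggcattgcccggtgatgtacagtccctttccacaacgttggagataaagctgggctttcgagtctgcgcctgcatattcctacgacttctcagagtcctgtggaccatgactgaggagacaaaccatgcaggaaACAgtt
Snora73a and Snora73b matched at 198 of 205 aligned bases, with 7 mismatches and no gap (96.6% identity). The next most alike pair among members with a sequence was Snord73a and Snord73b, at 73.2%. Reads from the shared stretches of Snora73a and Snora73b may be assigned to either, so their separate levels are uncertain and their sum is given beside them.

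The most abundant C/D member, Snord17 at chr2:144107899-144108136 (minus strand), and Snord94 at chr6:71859541-71859677 (minus strand) are shown for their level and steadiness. Snord17 guides methylation of large-subunit ribosomal RNA, and Snord94 guides methylation of the spliceosomal RNA U6. Capitals mark a C box (TGATGA) within the first 30 bases and a D box (CTGA) within the last 20 bases, searched on the RNA strand only.
Snord17: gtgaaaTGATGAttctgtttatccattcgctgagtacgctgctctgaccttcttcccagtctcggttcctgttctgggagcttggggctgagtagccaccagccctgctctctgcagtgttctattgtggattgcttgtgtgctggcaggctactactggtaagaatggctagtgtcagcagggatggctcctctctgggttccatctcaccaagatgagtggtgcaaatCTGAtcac
Snord94: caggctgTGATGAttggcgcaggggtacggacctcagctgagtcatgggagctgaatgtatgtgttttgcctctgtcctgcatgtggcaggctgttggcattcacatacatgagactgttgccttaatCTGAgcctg
Snord118, or U8, at chr11:68964253-68964387 (plus strand), is shown because it lies inside no larger gene of the table on its strand. U8 is needed for the maturation of the large-subunit ribosomal RNAs.
Snord118: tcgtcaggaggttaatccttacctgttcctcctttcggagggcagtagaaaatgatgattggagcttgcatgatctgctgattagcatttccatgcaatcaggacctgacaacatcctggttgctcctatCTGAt
The next 3 are shown because each had the smallest p-value of its direction in at least 2 comparisons: Snord90 at chr2:37290059-37290169 (minus strand), Snord82 at chr1:86283983-86284052 (minus strand) and Snora21 at chr11:97672465-97672601 (minus strand).
Snord90: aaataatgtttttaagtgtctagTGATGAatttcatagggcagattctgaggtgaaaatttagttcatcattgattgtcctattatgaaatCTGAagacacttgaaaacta
Snord82: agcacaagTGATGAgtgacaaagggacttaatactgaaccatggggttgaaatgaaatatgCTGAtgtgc
Snora21: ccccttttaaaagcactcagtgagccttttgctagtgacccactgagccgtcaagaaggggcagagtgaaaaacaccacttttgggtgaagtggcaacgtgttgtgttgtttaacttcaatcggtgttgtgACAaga
The trio Snord32a at chr7:44776806-44776888, Snord34 at chr7:44776025-44776094 and Snord35a at chr7:44775770-44775859 (all minus strand) shares 1 host gene, Rpl13a, yet had unlike levels.
Snord32a: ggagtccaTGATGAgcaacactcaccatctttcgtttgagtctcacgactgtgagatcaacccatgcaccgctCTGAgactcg
Snord34: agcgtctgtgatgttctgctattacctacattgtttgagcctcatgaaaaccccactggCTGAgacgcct
Snord35a: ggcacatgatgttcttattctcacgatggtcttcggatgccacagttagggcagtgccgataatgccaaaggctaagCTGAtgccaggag
Of the 46 C/D members with a sequence, 29 (63.0%) held TGATGA in the first 30 bases and 45 (97.8%) held CTGA in the last 20. Among the 21 H/ACA members with a sequence, 20 (95.2%) held ACA in the last 8 bases. Over all 1065 snoRNA genes of the table with a sequence, in which named and unnamed genes are mixed, the same windows held TGATGA in 11.6%, CTGA in 25.3% and ACA in 53.0%. A match is a description of these letters only, and the C box of U8, for example, fell outside the window searched.

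The members differed widely in level. Snora73b had a mean of 47.8 TPM over the 30 libraries (range 24.6 to 63.4) and held 10.8% of the members' summed mean. Snord17 followed at 28.02 TPM (11.5 to 45.4), Snora73a at 18.6 (11.1 to 30.3), the 216-base entry of Snord3b4, a copy of U3, at 15.6 (1.96 to 25.7), Snora74a (U19) at 14.4 (1.04 to 26.8) and Snord94 at 14.3 (5.84 to 23). Snord37, at 13.8 TPM (4.71 to 37.1), was the most abundant C/D member under 100 bases and guides methylation of large-subunit ribosomal RNA. The 10 most abundant members held 42.5% of the summed mean and the 20 most abundant 62.9%. At the other end, Snord93 had a mean of 0.308 TPM and was above 0 in 9 libraries.

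Box C/D members together exceeded box H/ACA members in every library. Summed C/D TPM ran from 229 to 381.6 (median 289) and summed H/ACA TPM from 96.9 to 199.6 (median 154), and the ratio of both sums ranged from 1.43 to 2.92 with a median of 1.90. The median member had about the same level in both classes, 3.72 TPM for C/D and 3.63 TPM for H/ACA, so the larger C/D sum went with the larger number of members. Restricted to the 27 members above 0 in every library (17 C/D and 10 H/ACA), the median ratio was 1.26. The named members held between 22.7% and 30.2% of the TPM of all snoRNA genes in a library.

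**Figure D1:**
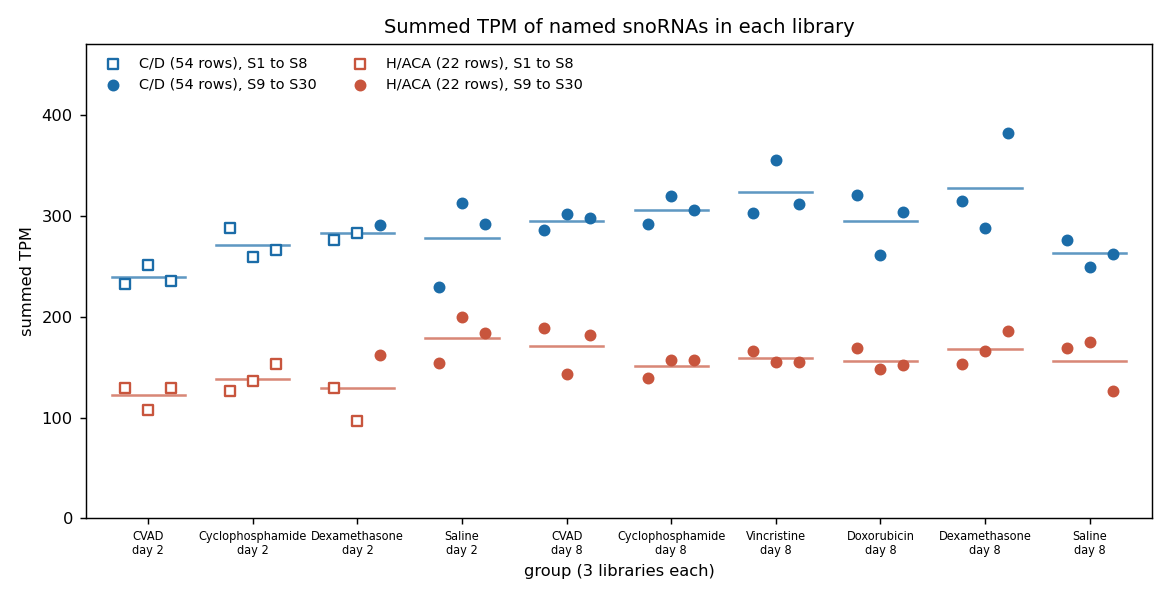
Summed TPM of the 54 C/D members (blue) and the 22 H/ACA members (red) in each of the 30 libraries, by group, with horizontal lines at group means and open squares for libraries S1 to S8. C/D sums lie between 229 and 381.6 and H/ACA sums between 96.9 and 199.6, and the open squares of the H/ACA series lie at 96.9 to 152.9.

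Detection went with length. The C/D members had a median length of 86 bases (64 to 238) and the H/ACA members of 136.5 bases (128 to 205). Of the 15 members of 140 to 240 bases, 11 (73.3%) were above 0 in every library, against 8 of 25 (32.0%) at 100 to under 140 bases and 8 of 36 (22.2%) at 60 to 99 bases. The longest class, which includes 5 entries for U3, also had the highest level. The median of its members' mean TPM was 7.03, against 2.78 in the middle class and 3.998 in the shortest. Length and level were not separated. The median coefficient of variation over the 30 libraries was 44.1% for the longest class, 82.5% for the middle one and 80.2% for the shortest. Snora73b, at 205 bases, had the smallest of all, 19.6%, and Snord17, at 238 bases, had 22.9%. Each library had between 3 and 14 members at exactly 0, and some of these members were well above 1 TPM in other libraries of the same group. Snord32a, a C/D RNA that guides methylation of ribosomal RNA of both subunits, had a mean of 12.3 TPM but was listed at 0 in the first saline library of day 2, beside 14.7 and 10.7 TPM in the other libraries of that group. The table holds no read counts, so depth is unknown, and an exact 0 can be a failed estimate as well as a missing RNA.

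**Figure D2:**
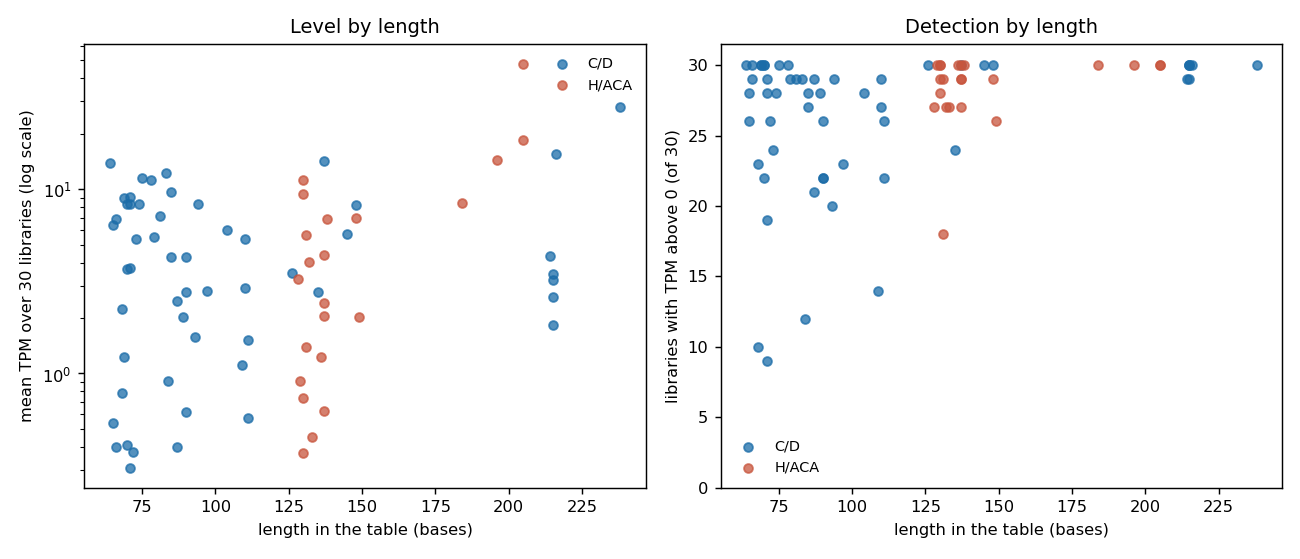
Mean TPM over 30 libraries (left, log scale) and number of libraries above 0 (right) against length in bases, 1 point for each of the 76 members, C/D in blue and H/ACA in red. The members above 180 bases were above 0 in at least 29 libraries, and the 36 members of 60 to 99 bases ranged from 9 to 30 libraries.

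Some well-known snoRNAs were not among the members. All 17 entries of the Snord116 cluster, an imprinted C/D family that is made from a long neuronal transcript, were listed at 0 in every library, and so was its host, Snhg14. These 17 make up most of the 24 named genes at 0 throughout. A uniform 0 may be a gap of the table, so absence of these RNAs is not shown. Snord64 of the same imprinted region, Snord3a, Snord60 and Snora64 were also listed at 0 in every library. Snord14c, Snord14d and Snora65 stayed below 1 TPM, with highest values of 0.318, 0.972 and 0.235 TPM.

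Of the 76 members, 73 lay inside a larger gene on the same strand, spread over 57 host genes. The hosts were protein-coding genes for 59 members and long noncoding RNA genes for 14, and 18 members lay in 13 ribosomal protein genes. The exceptions were Snord118, Snord13 and Snora57. How fully RNAs this short were recovered was not tested, so TPM does not rank member and host in the cell. As listed in TPM, 67 members had a mean below that of the host and 6 above it. The 6 above it were Snora73b (47.8 TPM, host Snhg3 at 31.8 TPM) and the 5 U3 entries, which lie within Tex14, a gene at 1.52 TPM. For 2 of these U3 entries the order rests on libraries S11 and S26, described below. Snord3b1 had a mean of 1.82 TPM, but a median of 0.604 TPM over the other 28 libraries. The shorter Snord3b4 entry had a mean of 2.61 TPM and a median of 1.50 TPM over those 28. Snhg3 is a noncoding host gene, and Snora73a, in the same transcript, had 18.6 TPM. Mouse U3 genes are known to be transcribed from promoters of their own, so Tex14 is a neighbour here in position only.

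Members of the same host differed in level. Rpl13a, a ribosomal protein gene at 172.5 TPM, holds Snord32a (12.3 TPM, above 0 in 29 libraries), Snord34 (8.34 TPM, above 0 in 30) and Snord35a (2.76 TPM, above 0 in 22). Snord34 and Snord35a guide methylation of large-subunit ribosomal RNA. Ncl, the gene of nucleolin, at 50.9 TPM, holds Snord82 (3.71 TPM) and Snora75 (0.454 TPM). Nop56 and Nop58, which code for proteins that C/D RNAs bind, are hosts too: Nop56 (62.7 TPM) holds Snord110 and Snord57, at 0.786 and 0.373 TPM, and Nop58 (19.5 TPM) holds Snord70 and Snord11, at 2.47 and 0.906 TPM. Gas5, a noncoding host gene at 59.3 TPM, holds Snord78, at 0.399 TPM.

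The core proteins of both classes had signal in the table, with 1 exception, Nhp2. Its uniform 0 may be a gap of the table, so absence of its RNA is not shown. Among C/D proteins the mean level was 28.1 TPM for Fbl (fibrillarin), 62.7 for Nop56, 19.5 for Nop58 and 46.4 for Snu13. Among H/ACA proteins it was 28.3 TPM for Dkc1, 43.7 for Nop10 and 16.2 for Gar1, while Nhp2 was listed at 0 in every library. All 10 sensory neuron markers, all 3 satellite glia markers and all 4 Schwann cell markers were above 0 in all 30 libraries, against 2 of 8 spinal cord, 2 of 6 skeletal muscle and 4 of 6 marrow and blood markers. Summed muscle markers varied most, from 7.31 to 742.3 TPM, and overlapped between the groups of libraries compared below. At day 8 the summed marrow and blood markers were higher with saline, at 189.1, 230.7 and 233.2 TPM, than in every library of CVAD (64.7 to 90.9), cyclophosphamide (101.2 to 153.6), vincristine (91.4 to 173.6) and doxorubicin (96.98 to 179.1), and overlapped with dexamethasone (163 to 198.6). Saline at day 2 had 88.4, 103.5 and 129.4 TPM. The part of the muscle, marrow and blood levels in the snoRNA values was not tested.

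The U3 entries exchanged their order of level in 2 libraries. U3 is the box C/D RNA that pairs with the ribosomal RNA precursor for the release of the small-subunit RNA, and 5 members are named as its copies, all within 28.4 kb of chromosome 11: Snord3b1, Snord3b2, Snord3b3 and the 2 entries of Snord3b4. In 28 libraries the 216-base entry of Snord3b4 was the main one, at 8.80 to 25.7 TPM, and the 4 shorter entries together had 5.15 to 9.86 TPM. In library S11 (saline, day 2) and library S26 (dexamethasone, day 8) the order was reversed. There the 216-base entry had 2.34 and 1.96 TPM, and the 4 shorter entries together had 61.7 and 71.2 TPM. Snord3b1, for example, stood at 17.2 TPM in S11 and 19.7 TPM in S26, against 0 to 1.42 TPM in the other 28 libraries. The sum over the 5 entries was 64.1 and 73.2 TPM in S11 and S26, against 15.2 to 33.96 TPM elsewhere. The 2 entries of Snord3b4 share all but 1 base of their span (chr11:87353112-87353327 and chr11:87353112-87353326, plus strand), so reads there cannot be told apart by position, and values of single U3 entries are uncertain. Snord3b-ps2, a further entry named as a U3 pseudogene, had 1.74 and 3.89 TPM in S11 and S26, within its range of 0 to 9.56 TPM. These 2 libraries were singled out after their values were seen.

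**Figure D3:**
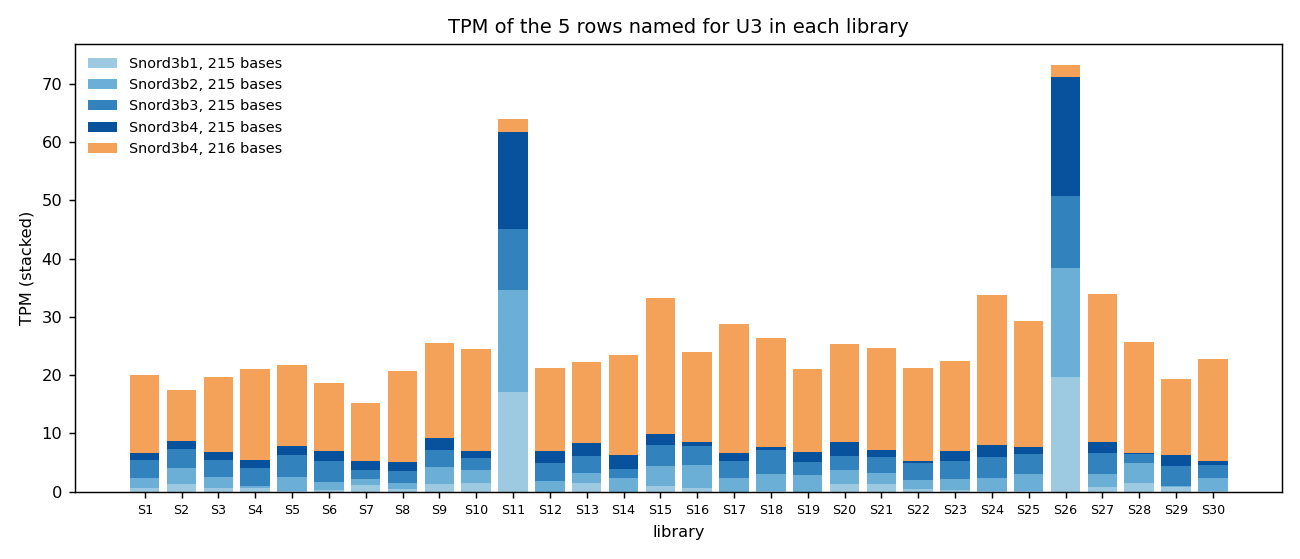
TPM of the 5 entries named as U3 copies, stacked, in each of the 30 libraries (S1 to S3 CVAD, S4 to S6 cyclophosphamide, S7 to S9 dexamethasone and S10 to S12 saline at day 2; S13 to S15 CVAD, S16 to S18 cyclophosphamide, S19 to S21 vincristine, S22 to S24 doxorubicin, S25 to S27 dexamethasone and S28 to S30 saline at day 8). The 216-base entry (orange) makes up most of the bar in 28 libraries, and the 4 shorter entries (blues) in S11 and S26.

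Libraries S1 to S8 stood apart in their snoRNA levels. These are all CVAD and all cyclophosphamide libraries of day 2 and 2 of the 3 dexamethasone libraries of day 2, while the third dexamethasone library (S9) and all 3 saline libraries of day 2 lie outside. The labels do not call them a batch, and they were chosen as a set with earlier results of these data known, so the values below are a description with no test. Summed over the 76 members, they had 387 ± 24.4 TPM (SD, n = 8) against 461 ± 41.0 TPM (SD, n = 22) in the rest, that is 84.1%. The ranges overlapped, at 357.9 to 419.2 and 383.1 to 567.4 TPM, and all 8 lay below the median of the rest. H/ACA members stood at 77.4% of the rest (126 ± 17.2 against 163 ± 17.6 TPM) and C/D members at 87.7% (261 ± 20.8 against 298 ± 32.9 TPM). By length, members of 140 to 240 bases were at 75.6% (77.4% without the 5 U3 entries), those of 100 to under 140 bases at 81.8% and those of 60 to 99 bases at 93.95%. In the longest class, C/D members were at 74.6% (79.95% without the U3 entries) and H/ACA members at 76.3%.

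Some other classes of RNA moved with this division of the libraries. Summed ribosomal RNA genes had 641 ± 217 TPM in S1 to S8 and 363 ± 47.8 TPM in the rest, and the ranges, 470.9 to 1118 and 250.3 to 458, did not overlap. Small nuclear RNA genes were at 76.4% of the rest, the other snoRNA genes at 92.7%, small Cajal body RNA genes at 93.7% and protein-coding genes at 100.4%. MicroRNA genes were at 64.9%, with a wide range in the rest (5611 to 42060 TPM). Ribozyme genes were at 91.6% and genes labelled miscellaneous RNA at 99.9%. Scaled to the protein-coding sum of each library, the members were at 83.8% of the rest, and with median-ratio scaling at 82.5%. Single members were lower in S1 to S8 on the log2(TPM + 1) scale for 52 of 76 (68.4%), with a median difference of −0.19, against 39.5% of all 25434 genes tested, with a median of 0.03. For H/ACA members it was 17 of 22, and the median was −0.35. A raised share of genes lower in S1 to S8 was not particular to the members. The medians of the next 2 sets were nearer that of all genes than that of the members. Of their 57 host genes, 36 (63.2%) were lower in S1 to S8, with a median of −0.01. Of the 266 other snoRNA genes tested, 148 (55.6%) were lower, with a median of −0.04. CVAD and cyclophosphamide at day 2 lie wholly inside the set and saline at day 2 wholly outside it, so treatment and membership of the set cannot be told apart there. The part of the ribosomal RNA level in the snoRNA values was not tested.

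The U17 pair, which holds the most abundant member, is given here in every library. Snora73b had 59.3, 59.3 and 57.3 TPM in the saline libraries of day 2. It had 44.8, 30.5 and 41.8 TPM with CVAD, 44.8, 44.97 and 39.05 TPM with cyclophosphamide, and 33.2, 24.6 and 63.4 TPM with dexamethasone, all at day 2. All 8 libraries of S1 to S8 lay below all saline libraries of day 2, whereas the dexamethasone library outside the set, S9, had the highest value of all 30. At day 8 Snora73b had 61.3, 35.96 and 60.0 TPM with CVAD, 56.9, 53.2 and 39.6 TPM with cyclophosphamide, 50.1, 50.2 and 50.9 TPM with vincristine, 49.0, 47.8 and 47.9 TPM with doxorubicin, 44.4, 42.4 and 47.1 TPM with dexamethasone and 52.4, 49.0 and 51.8 TPM with saline. The dexamethasone libraries of day 8 lay below the saline libraries of that day without overlap. The pair together had 52.7 ± 9.18 TPM in S1 to S8 and 71.4 ± 7.42 TPM in the rest (73.8%), and the host gene Snhg3 differed by −0.20, −0.21 and −0.12 on the log2(TPM + 1) scale in the CVAD, cyclophosphamide and dexamethasone comparisons of day 2.

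**Figure D4:**
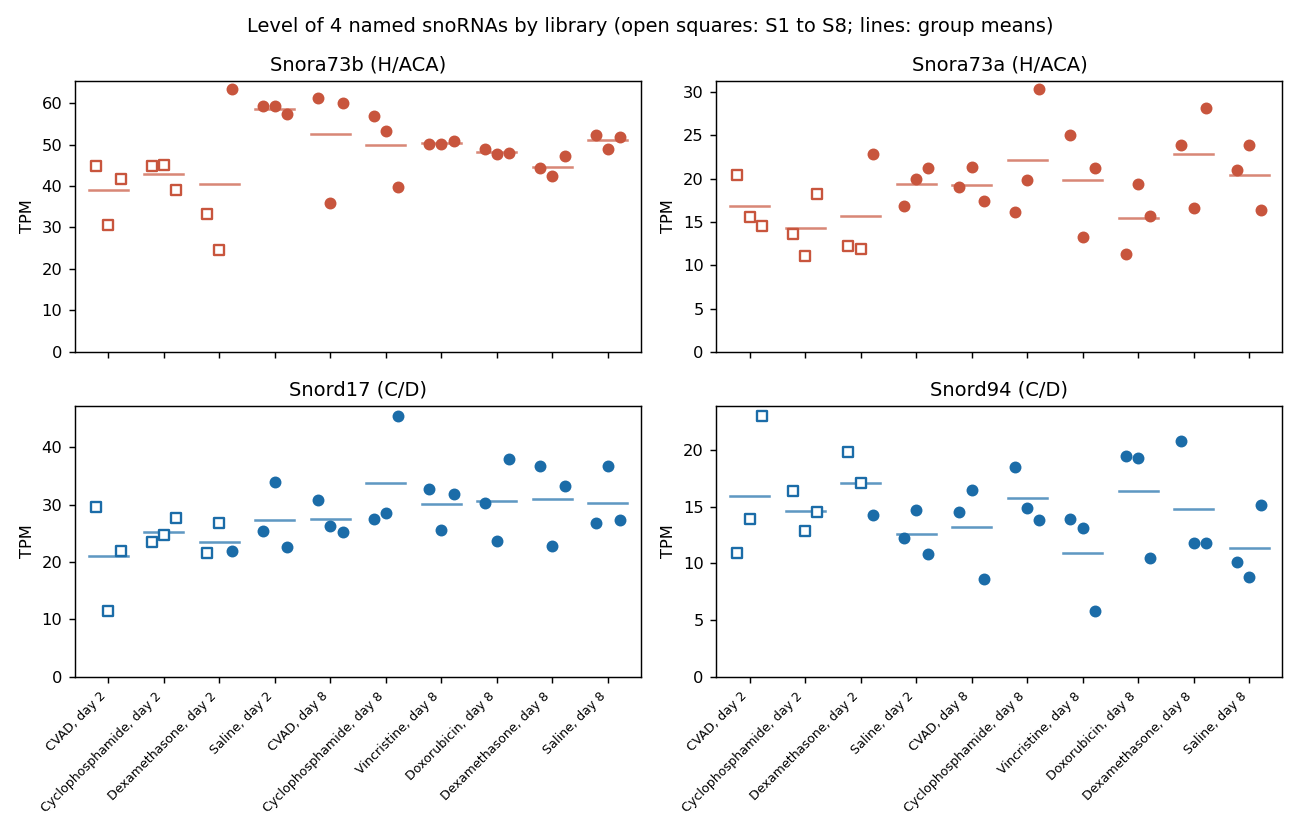
TPM in each library of the 4 members Snora73b, Snora73a, Snord17 and Snord94, by group, with horizontal lines at group means and open squares for libraries S1 to S8. The open squares of Snora73b lie at 24.6 to 44.97 TPM, below the saline libraries of day 2, while those of Snord94 lie at 10.9 to 23 TPM among the others.

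Other members, abundant or not, had means in S1 to S8 on either side of those in the rest. Snord94 had a mean of 16.1 TPM in S1 to S8 and 13.6 TPM in the rest, and Snord32a 12.8 and 12.1 TPM. Snord34 had means of 10.2 and 7.67 TPM, and Snord82 of 5.27 and 3.15 TPM. On the lower side, Snord17 had means of 23.4 and 29.7 TPM, Snora30, which guides pseudouridylation of large-subunit ribosomal RNA, 8.96 and 12.03 TPM, and Snora70 1.07 and 2.89 TPM. Within dexamethasone at day 2, where treatment was the same, the mean log2(TPM + 1) of S7 and S8 was compared with S9 alone. That mean was lower than S9 for 43 of 76 members (56.6%), with a median difference of −0.19. For all genes the share was 32.2% and the median 0.09. The share was 43.9% of the host genes (median 0.03) and 42.1% of the other snoRNA genes tested (median 0).

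The comparisons of treatment with saline were tested with limma on log2(TPM + 1) over all 25434 genes that reached 1 TPM in at least 3 libraries, with 1 model over the 30 libraries and Benjamini-Hochberg adjustment. A gene was called at an adjusted p of at most 0.05. No member was called in any of the 9 comparisons. Differences below are on the log2(TPM + 1) scale, where those of low members are understated, and stand with their standard error from the fit. The comparisons of a day share their 3 saline libraries. Most members named below were picked for small p-values, so a lack of overlap between their groups follows partly from that choice. How many of all genes lacked overlap was not counted.

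At day 2, the levels of the H/ACA members were below saline with CVAD for 16 of 22, with a median difference of −0.61, while the median was −0.02 for the C/D members and 0.07 for all genes. Limma called 0 of 76 members, where 0.0432% of all genes were called. At an unadjusted p under 0.05 there were 1 higher and 6 lower members (9.21%), against 8.19% of all genes (1774 higher, 310 lower). The smallest p-values belonged to Snord90, at −1.45 ± 0.49 (unadjusted p = 0.00646, limma adjusted p = 0.373), and on the higher side Snora21, at 1.37 ± 0.57 (unadjusted p = 0.0246, limma adjusted p = 0.515). Snora21, which guides pseudouridylation of large-subunit ribosomal RNA and lies in Rpl23, had 1.78, 4.89 and 2.43 TPM with CVAD and 0, 2.27 and 0 TPM with saline. Snord8 differed by −1.82 ± 0.65 (limma adjusted p = 0.407). Snora73b differed by −0.59 ± 0.22 (limma adjusted p = 0.42). With a term for S1 to S8 in the fit the difference of Snora73b was 0.53, on the opposite side, and the H/ACA median was −0.30. The term rests on dexamethasone alone, since no other group spans the division.

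Cyclophosphamide at day 2 gave a like pattern of signs against the same saline libraries. H/ACA members were below saline for 17 of 22, with a median of −0.34, and the C/D median was 0.12, against 0.06 for all genes. Over members above 0 in every library the C/D median was −0.04, and it was −0.009 without library S4 and −0.007 without S5. Again 0 of 76 members were called by limma, against 0.0118% of all genes. An unadjusted p under 0.05 was found for 1 higher and 3 lower members (5.26%), against 7.51% of all genes (1520 higher, 389 lower). Snora21 had 4.45, 2.90 and 4.47 TPM beside the saline values of 0, 2.27 and 0 TPM, a difference of 1.72 ± 0.57 (limma adjusted p = 0.485). These groups did not overlap. Snord11, a C/D RNA in Nop58, had 3.24, 1.41 and 2.44 TPM with saline and was listed at 0 in each cyclophosphamide library (−1.71 ± 0.67, limma adjusted p = 0.553). Over all groups Snord11 was above 0 in only 12 of the 30 libraries. The U3 entry Snord3b2 differed by −1.35 ± 0.61 with all libraries, and by −0.48 ± 0.57 (limma adjusted p = 0.965) without S11. With the term for S1 to S8 the H/ACA median was 0.03, and Snora73b differed by 0.68 in place of −0.44.

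Dexamethasone at day 2 is the group that spans the division of libraries. Its H/ACA members were below saline for 16 of 22, with a median of −0.36 and, with S9 as the only dexamethasone library, of −0.12. Its C/D median was 0.08 and that of all genes 0.06. Of the 76 members, limma called 0, against 0.00393% of all genes. An unadjusted p under 0.05 was found for 3 higher and 5 lower members (10.5%), against 5.37% of all genes (1097 higher, 268 lower). Snora73b had the smallest p, at −0.64 ± 0.22 (unadjusted p = 0.00712, limma adjusted p = 0.812). Without library S9 the difference was −1.01 and limma called it, with an adjusted p of 0.0115, the single call of a member in any alternative analysis. With S9 as the only dexamethasone library, in a fit without S1 to S8, the difference was 0.11, on the opposite side. Snora70, an H/ACA RNA in Rpl10, had 0.0309, 0.213 and 0.675 TPM with dexamethasone and 0.631, 5.44 and 4.26 TPM with saline (−1.57 ± 0.64, limma adjusted p = 0.891). Snord61, in Rbmx, had 5.98, 8.97 and 8.09 TPM beside 2.10, 0 and 3.80 TPM (1.80 ± 0.85, limma adjusted p = 0.92), and without the saline library at 0, S11, the difference was 1.15. Snord57, in Nop56, differed by 0.80 ± 0.36 (limma adjusted p = 0.912) at levels near 1 TPM.

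None of the day 8 libraries lies in S1 to S8. With CVAD at day 8, H/ACA members were below saline for 9 of 22, and the medians were 0.07 for H/ACA, 0.04 for C/D and 0.02 for all genes. Neither a member (0 of 76) nor any other gene (0% of all genes) was called by limma, and 7 higher and 3 lower members (13.2%) had an unadjusted p under 0.05, against 5.98% of all genes. Snord13, the U13 RNA, which guides base acetylation of small-subunit ribosomal RNA, had 10.1, 14.6 and 12.9 TPM with CVAD and 4.37, 0 and 5.02 TPM with saline, without overlap (2.07 ± 0.70, limma adjusted p = 0.562). Without the saline library at 0, S29, this difference was 1.24. Snord123, in Snhg18, had 14.7, 17.5 and 12.4 TPM beside 19.97, 3.69 and 0 TPM, which overlap (1.77 ± 0.71, limma adjusted p = 0.703). The Snord123 difference was 0.67 without S30, the saline library at 0, and 2.86 without S28, the highest saline library. Snord90 differed by −1.29 ± 0.49 (limma adjusted p = 0.653), and by −0.85 without S14.

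With cyclophosphamide at day 8, the C/D median was 0.15 and the H/ACA median −0.11, against −0.04 for all genes. The C/D median was 0.33 without library S16 and 0.046 without S17. The limma fit called 0 of 76 members against 0.00786% of all genes. An unadjusted p under 0.05 was found for 4 higher and 3 lower members (9.21%), against 5.76% of all genes (302 higher, 1163 lower). Snord82, which lies in the nucleolin gene Ncl, had 8.71, 2.99 and 6.36 TPM with cyclophosphamide and was listed at 0 in all 3 saline libraries of day 8 (2.72 ± 0.81, limma adjusted p = 0.566). In the saline libraries of day 2 it had 4.04, 0 and 4.89 TPM. Snora74a differed by 1.54 ± 0.54 (limma adjusted p = 0.695), and by 0.63 without the saline library S30. Snora23, in Ipo7, had 4.32, 3.997 and 4.92 TPM beside 11.1, 11.1 and 7.30 TPM (−0.98 ± 0.39, limma adjusted p = 0.775). The Snora23 values did not overlap between these groups.

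Vincristine, given alone and sampled at day 8, had a C/D median of 0.20 and an H/ACA median of −0.08, against 0.02 for all genes. Over members above 0 in every library the C/D median was −0.004, and without library S21 it was 0.39. Calls by limma numbered 0 of 76 members and 0% of all genes, with 3 higher and 0 lower members (3.95%) at an unadjusted p under 0.05, against 3.44% of all genes. Snord82 had 3.18, 5.96 and 8.42 TPM against the 3 saline libraries at 0 (2.70 ± 0.81, limma adjusted p = 1). Snord61 had 3.29, 6.80 and 12.4 TPM with vincristine and 0, 0 and 2.63 TPM with saline (2.32 ± 0.85, limma adjusted p = 1). Both groups of values were free of overlap. On the lower side the smallest p belonged to Snord23, in Nop53, at −1.02 ± 0.69 (unadjusted p = 0.151, limma adjusted p = 1), and its difference ran from −1.82 (without S19) to −0.60 (without S28).

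With doxorubicin at day 8 the medians were 0.08 for C/D, −0.03 for H/ACA and −0.02 for all genes. In limma 0 of 76 members and 0% of all genes were called, and 2 higher and 1 lower members (3.95%) had an unadjusted p under 0.05, against 3.35% of all genes. Snora74a, the U19 RNA, which lies in the noncoding host Snhg4, had 18.2, 15.9 and 18.99 TPM with doxorubicin and 10.6, 14.97 and 1.04 TPM with saline (1.37 ± 0.54, limma adjusted p = 1). Without the saline library at 1.04 TPM, S30, the difference was 0.46. Snord82 had 7.08, 0 and 4.54 TPM (1.83 ± 0.81, limma adjusted p = 1), and differed by 2.74 without S23, the library at 0, and by 1.07 with library weights. Snord91a differed by −1.29 ± 0.66 (limma adjusted p = 1).

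Dexamethasone at day 8 had a C/D median of 0.33, with 39 of 54 C/D members above saline, beside an H/ACA median of 0.09 and −0.02 for all genes. The C/D median was 0.12 without the dexamethasone library S27 and 0.18 without the saline library S29. Limma called 0 of 76 members and 0% of all genes, and 5 higher and 3 lower members (10.5%) had an unadjusted p under 0.05, against 3.26% of all genes. Snord90 was listed at 0 in all 3 dexamethasone libraries of day 8 and at 3.17, 4.53 and 3.02 TPM with saline. Its difference, −2.18 ± 0.49, had the smallest unadjusted p of any member in any comparison, 0.000155, with a limma adjusted p of 0.657. Snord89 had 5.05, 3.80 and 7.87 TPM with dexamethasone and 0, 0.373 and 0.920 TPM with saline (2.20 ± 0.64, limma adjusted p = 1). The groups did not overlap for either. Snord23 was at 0 in all 3 dexamethasone libraries and at 5.30, 3.67 and 0.500 TPM with saline (−1.82 ± 0.69, limma adjusted p = 1). Over all groups Snord23 was above 0 in only 14 of the 30 libraries. The U3 entry Snord3b3 differed by 0.97 ± 0.38, and by 0.44 ± 0.36 (limma adjusted p = 0.979) without S26.

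Several of these differences share the saline libraries of day 8, and the values of Snord90, Snord82 and Snord89 show it. Snord90 was at 3.02 to 4.53 TPM in saline at day 8, and at 4.14, 3.12 and 4.09 TPM with vincristine, 0.436, 3.12 and 0.869 TPM with doxorubicin, 0, 1.40 and 0.763 TPM with cyclophosphamide and 0.800, 0 and 2.52 TPM with CVAD. The vincristine values lay within the saline range, and those of the other agents below it in all but 1 library. In saline at day 2 the same RNA had 2.89, 0.552 and 2.95 TPM. Snord90 lies in Rc3h2, and this host was not called in any comparison. Snord82 and Snord89 were at or below 0.920 TPM in all saline libraries of day 8, so groups of day 8 with signal mostly stood above them. Some libraries did not. Snord89 had 0.274, 3.41 and 0 TPM with vincristine and 0.236 TPM in the CVAD library S15. Snord82 was at 0 in S14 (CVAD) and S23 (doxorubicin).

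Between the saline groups, day 8 against day 2, the medians were −0.08 for C/D and −0.08 for H/ACA members, against 0.07 for all genes. By limma 0 of 76 members were called against 0.00393% of all genes. An unadjusted p under 0.05 was found for 1 higher and 4 lower members (6.58%), against 6.93% of all genes (1406 higher, 356 lower). Snora21 had 5.95, 5.88 and 4.41 TPM at day 8 and 0, 2.27 and 0 TPM at day 2 (2.10 ± 0.57, limma adjusted p = 0.426). Snord89 had 0, 0.373 and 0.920 TPM at day 8 and 5.55, 3.31 and 5.43 TPM at day 2 (−2.04 ± 0.64, limma adjusted p = 0.459). Both sets of values were free of overlap. For Snora21 this difference between saline groups was larger than those of CVAD and cyclophosphamide from saline at day 2, 1.37 and 1.72. The shorter U3 entry of Snord3b4 differed by −1.50 ± 0.64, and by −0.58 ± 0.59 (limma adjusted p = 0.901) without S11.

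**Figure D5:**
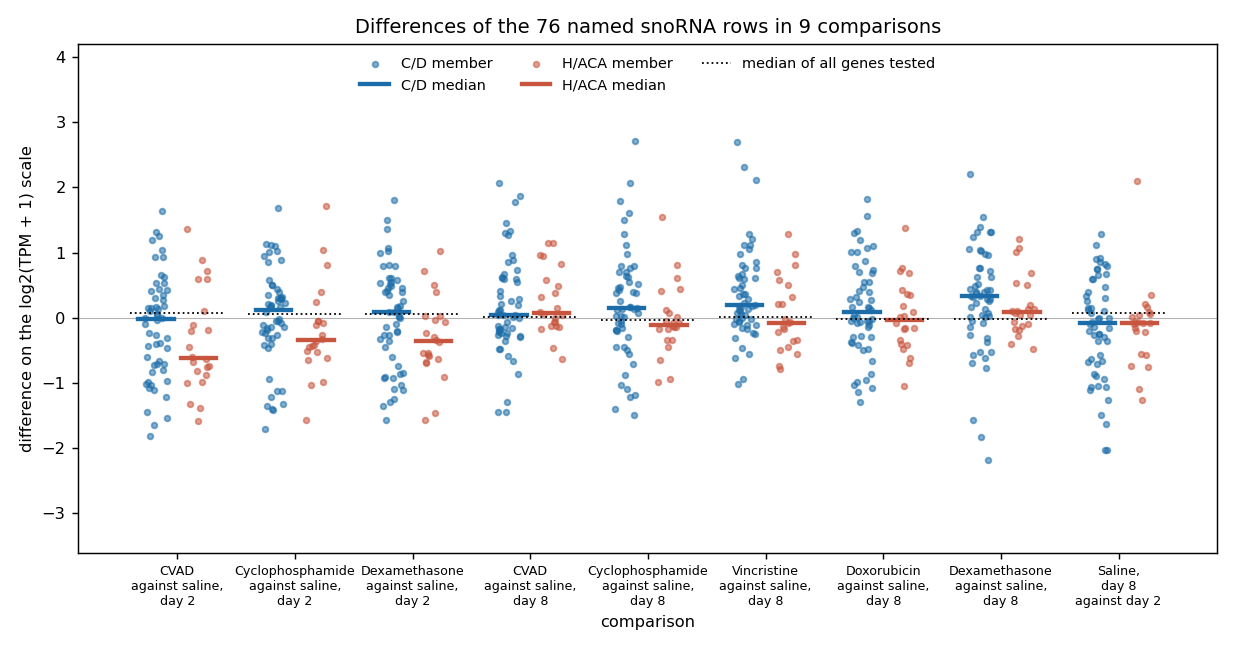
Differences of the 76 members on the log2(TPM + 1) scale in the 9 comparisons, C/D in blue and H/ACA in red, with bold lines at class medians and dotted lines at the median of all genes tested. The H/ACA median lies at −0.61, −0.34 and −0.36 in the 3 treatment comparisons of day 2 and between −0.11 and 0.09 in the other 6.

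The genes of the snoRNA pathway showed no called difference either. Over the lists of 4 C/D proteins, 4 H/ACA proteins (3 tested), 13 assembly and maturation factors, 20 noncoding host genes (17 tested), 10 genes of ribosomal RNA synthesis and the 57 host genes, limma called 0 genes in each of the 9 comparisons. Of all genes tested, between 0% and 0.0432% were called in a comparison, so 0 calls do not set these lists apart. The C/D proteins had medians between −0.07 and 0.08 and the H/ACA proteins between −0.09 and 0.18. At day 2 with CVAD, where the H/ACA members had their lowest median, Dkc1, the pseudouridine synthase of the complex, differed by 0.17 ± 0.17 (limma adjusted p = 0.877). The host genes had medians of 0.06, 0.03 and 0.04 in the CVAD, cyclophosphamide and dexamethasone comparisons of day 2, near those of all genes, with 8, 4 and 5 of 57 hosts (14%, 7.02% and 8.77%) at an unadjusted p under 0.05, against 8.19%, 7.51% and 5.37% of all genes. Genes of ribosomal RNA synthesis, such as those of RNA polymerase I, had medians between −0.10 and 0.15.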

How the data were processed

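The deposited table gives TPM for 56686 genes in 30 libraries. Per the submitters' processing notes, FastQC 0.12.1, STAR 2.7.10b and StringTie 2.2.1 were used, and mm10 and GRCm39 are named without their roles. The authors' TPM values sum to about 1e+06 per library, so depth is unknown and no interval from counts was made. Libraries were grouped by the labels' treatment and day. Genes with at least 1 TPM in at least 3 libraries (25434) were tested with limma 3.58.1 in R 4.3.3 on log2(TPM + 1), in a model of 10 group means with a trended moderated variance, and p-values were adjusted by Benjamini-Hochberg over all genes tested in each of 9 comparisons. The procedure was tried on simulated data with normal noise, in which only genes of higher level were changed. That trial does not cover members of low level. Sequences were read with Python 3.11.15 and compared with Biopython 1.88. The members, gene lists and the set S1 to S8 were chosen with earlier results of these data known. Genes were named by a rule: the 5 most abundant members of each class, the 2 of smallest p per direction in each comparison, a set of well-known snoRNAs, and hosts; only some are printed, and a few were added after their values were seen. Alternatives were another pseudocount (0.1), no filter, a filter of 10 libraries, median-ratio scaling, scaling to protein-coding genes, separate models by day, library weights, a term for S1 to S8 and leaving out each library. Added after seeing the data were a fit without S1 to S8, sums without U3 entries and members above 0 in every library.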

Additional observations from a re-analysis of the deposited data

How the results depend on the processing

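The count of called members was 0 in 131 of 132 alternative fits over the 9 comparisons. The exception was dexamethasone at day 2, where leaving out single libraries gave between 0 and 1 called members, the 1 being Snora73b without library S9. Of 282 alternative values of the class medians, 254 stayed within the spread of libraries. Beyond it, all as C/D medians on the log2 scale, the stricter filter gave −0.314 for CVAD and −0.044 for cyclophosphamide at day 2. A pseudocount of 0.1 gave 0.145 for CVAD, 0.404 for cyclophosphamide, 0.504 for vincristine and 0.625 for dexamethasone at day 8. Members above 0 in every library gave −0.044 for cyclophosphamide and 0.182 for dexamethasone at day 2, and 0.189 for CVAD and −0.004 for vincristine at day 8. Library weights gave −0.026 for CVAD at day 8. With a term for S1 to S8, the H/ACA median was −0.301 for CVAD and 0.029 for cyclophosphamide at day 2. Leaving out single libraries moved C/D medians over −0.281 to 0.035 (CVAD, day 2), −0.009 to 0.091 (cyclophosphamide, day 2), 0.025 to 0.181 (CVAD, day 8), 0.046 to 0.329 (cyclophosphamide, day 8), 0.118 to 0.39 (vincristine), 0.103 to 0.209 (doxorubicin), 0.123 to 0.434 (dexamethasone, day 8) and −0.245 to 0.062 (saline, day 8 against day 2). The ratio of C/D to H/ACA sums was 1.255 over members above 0 in every library. The causes were not tested. Of 291 alternative values of named members, 286 kept their direction and side of the threshold, 4 changed sign without a call and 1 was the call of Snora73b. The 4 were all Snora73b at day 2: 0.528 for CVAD, 0.678 for cyclophosphamide and 0.111 for dexamethasone with the term for S1 to S8, and 0.111 for dexamethasone in the fit without S1 to S8, which by construction is the same comparison of S9 with saline. Neither scaling moved the median of all genes by more than 0.071.

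No paired analysis was possible because the labels give each library a number of its own and no number shared between groups. Depth is unknown from TPM, so what sampling of short RNAs adds to the spread could not be measured, and 49 of the 76 members were at 0 in at least 1 library.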
